A study of Mus musculus with 20 samples.

Results

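The microRNAs described here are those of 10 hairpins that lie between Meg3 and the end of Rtl1 in the imprinted Dlk1-Dio3 region of mouse chromosome 12: miR-770, miR-673, miR-337, miR-540, miR-665, miR-431, miR-433, miR-127, miR-434 and miR-136. Rows were chosen by name, with either arm of a hairpin accepted, and 19 of the 1509 miRNA names in the deposited files met the rule. Small-RNA libraries were made from liver of 5 PiZ mice and 5 wild-type (WT) mice, all C57BL/6 and 6 weeks old. The PiZ genotype is a transgene that encodes human alpha-1 antitrypsin with the Z mutation, a protease inhibitor of the blood whose Z form is held back in hepatocytes. The labels give neither the promoter of the transgene nor the sex of the animals. The 2 technical runs of a library were added together, and the replicate is the mouse.

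The Dlk1-Dio3 region is imprinted: Dlk1, Rtl1 and Dio3 are transcribed from the paternal chromosome, and Meg3, Rian, Mirg and the miRNA hairpins between them from the maternal one. Rtl1 is a gene derived from a retrotransposon, and a maternal transcript that runs antisense to it holds several miRNA hairpins, so that these miRNAs match the Rtl1 mRNA perfectly and can direct its cleavage. The miRNAs of the region are known for high levels in the embryo, the placenta and the brain and for low levels in most adult tissues, the liver among them. A miRNA finds other targets mainly through its seed, bases 2 to 8 of the mature strand.

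The 10 hairpins span 31697 bases on the plus strand of GRCm38.p6. The name antisense to Rtl1 holds for 5 of them. miR-431 (chr12:109590447-109590537), miR-433 (chr12:109591715-109591838), miR-127 (chr12:109592846-109592915), miR-434 (chr12:109594506-109594599) and miR-136 (chr12:109595327-109595388) lie within 4942 bases, inside an exon of Rtl1 (chr12:109589193-109600330), which runs on the minus strand. The other 5 lie before it: miR-770 (chr12:109563692-109563785) inside an exon of Meg3 on the same strand, and miR-673, miR-337, miR-540 and miR-665 between the annotated Meg3 and Rtl1 genes, with starts at 109571990, 109585789, 109586080 and 109586314. Both arms of each of the 5 hairpins inside Rtl1, 10 of the 20 mature sequences, had a perfectly complementary site in the Rtl1 coding sequence, and none of the arms of the other 5 hairpins did.

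The mature sequences of the 5 miRNAs that were abundant enough to be tested, all from the hairpins inside Rtl1, are shown 5′ to 3′ because the results turn on them; RefSeq gives them for GRCm38.p6, and capitals mark the seed.
miR-431-5p: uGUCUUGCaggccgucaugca
miR-127-3p: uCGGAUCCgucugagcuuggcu
miR-434-3p: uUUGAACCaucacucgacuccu
miR-136-5p: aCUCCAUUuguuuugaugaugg
miR-136-3p: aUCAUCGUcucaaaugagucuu

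No 2 of these share a seed, and no other tested miRNA carried the seed of any of the 10 hairpins. The sites in the Rtl1 mRNA opposite the 2 most abundant are shown 5′ to 3′ to display the match along the whole miRNA, with the bases that pair with the seed in capitals.
Rtl1 site of miR-127-3p: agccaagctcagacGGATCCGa
Rtl1 site of miR-434-3p: aggagtcgagtgatGGTTCAAa

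Rtl1 mRNA itself was not measured by these libraries. Of the 20 mature sequences, miR-337-5p had no row in the files. Of the 19 rows, 13 were listed for every mouse, 4 only in files with the longer of 2 feature lists (1399 names; PiZ mice 1 and 2, WT mice 1 to 3) and 2 only in files with the shorter one (990 names; PiZ mice 3 to 5, WT mice 4 and 5). 5 of the 13 passed the filter on low counts, which asked for about 2.09 CPM (CPM are read counts scaled to libraries of one common size) in 3 or more mice. miR-127-3p and miR-434-3p reached that level in all 10 mice. miR-136-3p and miR-136-5p reached it in 4 PiZ mice and in 0 WT mice, and miR-431-5p in 4 PiZ mice and in 1 WT mouse, so these 3 passed through the PiZ mice.

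Some libraries stood apart. Totals ran from 2433273 to 10780801 reads in PiZ mice and from 1307857 to 10012788 reads in WT mice, and 1 read was worth 0.0887 to 0.409 CPM in PiZ libraries and 0.109 to 0.715 CPM in WT libraries. Hepatocyte miRNAs (miR-122, miR-802) summed to 7086 to 11855 CPM in PiZ mice and to 11938 to 14560 CPM in WT mice. Nearly all of that sum was miR-122-5p, with a log2 fold change of -0.48 (edgeR adjusted p = 0.119); the other 3 rows had positive ones, up to 1.34 for miR-802-5p (adjusted p = 0.217). PiZ mouse 4 held muscle miRNAs (67.7 CPM, against 0.788 to 3.27 CPM in the other PiZ mice and 0.303 to 2.15 CPM in WT mice) and the highest sum of neural miRNAs (180 CPM, against 53.5 to 103 CPM in the other PiZ mice and 52.1 to 71.7 CPM in WT mice). WT mice 1 and 3 had the lowest sums of the endothelial miR-126 rows, 7897 and 12653 CPM, against 23357 to 28800 CPM in PiZ mice and 32303 to 41279 CPM in the other WT mice. The part of these differences in the results was not tested; the results are given with and without these mice.

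In the livers of PiZ mice 1 to 4 the 5 tested miRNAs antisense to Rtl1 were more abundant than in any WT liver, except miR-431-5p in PiZ mouse 2, and in PiZ mouse 5 they lay inside or below the WT range. miR-136-3p and miR-434-3p rose in PiZ liver, and miR-136-5p, miR-127-3p and miR-431-5p had positive log2 fold changes that did not pass the test. edgeR's quasi-likelihood test with Benjamini-Hochberg adjustment thus called 2 of the 5 higher and 0 lower; of all 336 miRNAs tested, 28 (8.33%) were called higher. All 5 had an unadjusted p under 0.05 with a higher level in PiZ, as 18.8% of all tested miRNAs did. The median log2 fold change of the 5 was 2.17, beside 0.07 over all tested miRNAs. Because 3 of the 5 passed the filter through the PiZ mice, the count and the median describe these rows only, and in bulk liver more cells of a type and more RNA per cell cannot be told apart.

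miR-127-3p (mmu-miR-127-3p in the files), the most abundant of the group and the arm opposite Rtl1 from which nearly all reads of its hairpin came, had 794, 555, 1607, 554 and 172 CPM in PiZ mice 1 to 5. In WT mice 1 to 5 it had 401, 204, 399, 184 and 172 CPM. PiZ mice 1 to 4 lay above every WT mouse, PiZ mouse 3 highest by far, and PiZ mouse 5 lay at the bottom of the WT range, so the groups overlapped. PiZ livers had a median of 555 CPM and WT livers one of 204 CPM, with SDs of 535 CPM in PiZ and 118 CPM in WT (n = 5 each). The log2 fold change of 1.57 (SE 0.54) had an adjusted p of 0.109 in edgeR. It ranked 50 of 880 miRNAs by mean CPM in PiZ liver and 73 in WT liver. Without PiZ mouse 5 the log2 fold change was 1.75 (adjusted p = 0.0179), and without PiZ mouse 3 it was 1.02 (adjusted p = 0.118).

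miR-434-3p (mmu-miR-434-3p), from the hairpin between miR-127 and miR-136, had 189, 236, 442, 145 and 48.0 CPM in PiZ mice 1 to 5. In WT mice 1 to 5 it had 77.9, 51.7, 57.1, 66.2 and 58.0 CPM. The WT mice lay close together, 4 PiZ mice lay above all of them and PiZ mouse 5 lay below all of them. With averages of 212 ± 146 CPM in PiZ livers and 62.2 ± 10.2 CPM in WT livers (SD, n = 5 each), miR-434-3p rose by a log2 fold change of 1.77 (SE 0.48, edgeR adjusted p = 0.0403). The call was lost when any mouse other than PiZ mouse 5 was left out (adjusted p 0.0537 to 0.127), and without PiZ mouse 5 the log2 fold change was 1.99 (adjusted p = 0.00160).

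Both arms of miR-136, the last hairpin inside Rtl1, were measured with few reads. miR-136-3p (mmu-miR-136-3p) had 9, 14, 103, 51 and 11 reads in PiZ mice 1 to 5, and 0, 1, 0, 4 and 14 reads in WT mice 1 to 5. Scaled to depth, these were 3.68, 5.52, 10.3, 4.53 and 1.32 CPM in PiZ mice, against 0, 0.522, 0, 0.606 and 1.52 CPM in WT mice. PiZ mice 1 to 4 lay above every WT mouse, while PiZ mouse 5 lay just below WT mouse 5. miR-136-3p rose by a log2 fold change of 2.77 (SE 0.70, edgeR adjusted p = 0.0318), with averages of 5.07 ± 3.32 CPM in PiZ livers and 0.529 ± 0.622 CPM in WT livers (SD, n = 5 each). The call held without PiZ mouse 4 (adjusted p = 0.0469) and without PiZ mouse 5 (adjusted p = 0.00235), and was lost without any one of the other 8 mice (adjusted p 0.0583 to 0.122).

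The other arm, miR-136-5p, had 2.46, 4.33, 5.31, 2.84 and 0.837 CPM in PiZ mice 1 to 5, against 0, 1.04, 0, 1.21 and 0.543 CPM in WT mice 1 to 5. Its order of PiZ mice was that of the 3p arm, with PiZ mice 1 to 4 above every WT mouse and PiZ mouse 5 inside the WT range. Within WT the order differed, with mouse 4 highest for the 5p arm and mouse 5 for the 3p arm. It averaged 3.15 ± 1.73 CPM in PiZ livers and 0.560 ± 0.567 CPM in WT livers (SD, n = 5 each), with a log2 fold change of 2.17 (SE 0.68, edgeR adjusted p = 0.0764). miR-431-5p, from the first hairpin inside Rtl1, had 9, 7, 156, 68 and 8 reads in PiZ mice 1 to 5, and 5, 1, 1, 6 and 9 reads in WT mice 1 to 5. In CPM these were 3.68, 2.76, 15.6, 6.03 and 0.957 in PiZ mice, against 3.58, 0.522, 0.560, 0.909 and 0.977 in WT mice. PiZ mice 1, 3 and 4 lay above every WT mouse, the first of them by little, and WT mouse 1 stood above the rest of its group. The log2 fold change was 2.29 (SE 0.83, edgeR adjusted p = 0.118), with averages of 5.81 ± 5.78 CPM in PiZ livers and 1.31 ± 1.28 CPM in WT livers (SD, n = 5 each).

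Among all 336 tested miRNAs, 18.8% had 4 or more PiZ mice above every WT mouse in CPM, as 4 of these 5 did, and 6.55% had every PiZ mouse above every WT mouse, as 0 of these 5 did. miR-136-3p and miR-136-5p passed the filter with 4 PiZ mice and 0 WT mice at its level. Their order of mice follows from that, so the count of 4 describes these rows only.

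**Figure D1:**
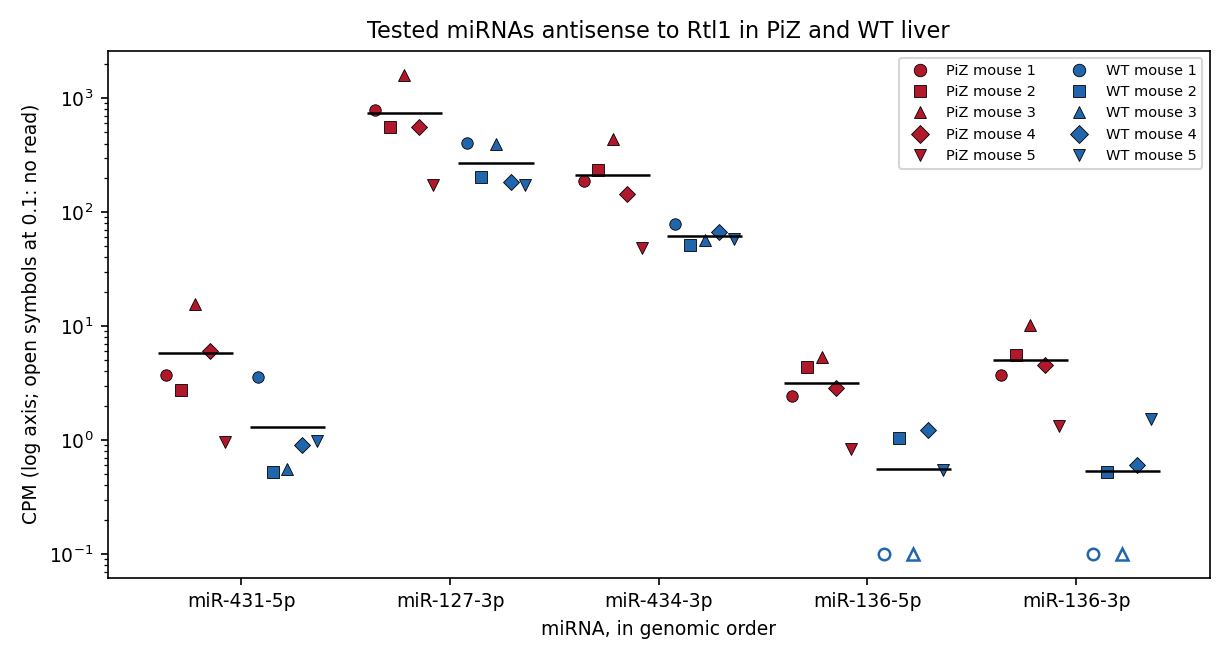
CPM on a log axis of the 5 tested miRNAs, by miRNA in genomic order along the horizontal axis, with 1 symbol per mouse (red, PiZ; blue, WT) and a bar at each group's mean; open symbols at 0.1 stand for mice with no read. PiZ mouse 3 is the highest for each miRNA, up to 1607 CPM of miR-127-3p, and PiZ mouse 5 (downward triangle) lies among or below the WT mice for each.

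The 5 miRNAs had the same PiZ mice at their extremes. As log2 ratios to the WT mean, PiZ mouse 3 was the highest for each, between 2.56 (miR-127-3p) and 4.28 (miR-136-3p), and PiZ mouse 5 the lowest for each. In PiZ mouse 5 the log2 ratio was -0.66 for miR-127-3p, -0.45 for miR-431-5p and -0.37 for miR-434-3p, and 0.58 and 1.31 for the 5p and 3p arms of miR-136. The median of the 5 log2 ratios, with no CPM added, was 1.60, 1.93, 3.24, 2.21 and -0.37 in PiZ mice 1 to 5. Over all tested miRNAs the medians in the same mice were 0.02, -0.02, -0.04, 0.09 and 0.07, computed with 0.5 CPM added. Adding CPM pulls ratios of low rows toward no difference, so these medians were not computed alike. The libraries of PiZ mice 3 and 5, the extremes, had similar depths of 9219190 and 9775091 reads.

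Leaving out 1 mouse at a time showed how much each decided. Without PiZ mouse 5 edgeR called all 5 higher, beside 13.4% of all tested miRNAs; without PiZ mouse 4 it called 1, beside 6.25%. Without any one of the other 8 mice it called 0 of the 5, with 4 or 5 of them at an unadjusted p under 0.05, beside 2.08% to 4.76% of all tested miRNAs called higher. The log2 fold changes stayed positive for all 5 with every mouse left out in turn. Leaving out PiZ mouse 3 took them to their lowest, 1.02 for miR-127-3p, 1.26 for miR-434-3p, 1.58 for miR-431-5p, 1.77 for miR-136-5p and 2.24 for miR-136-3p.

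**Figure D2:**
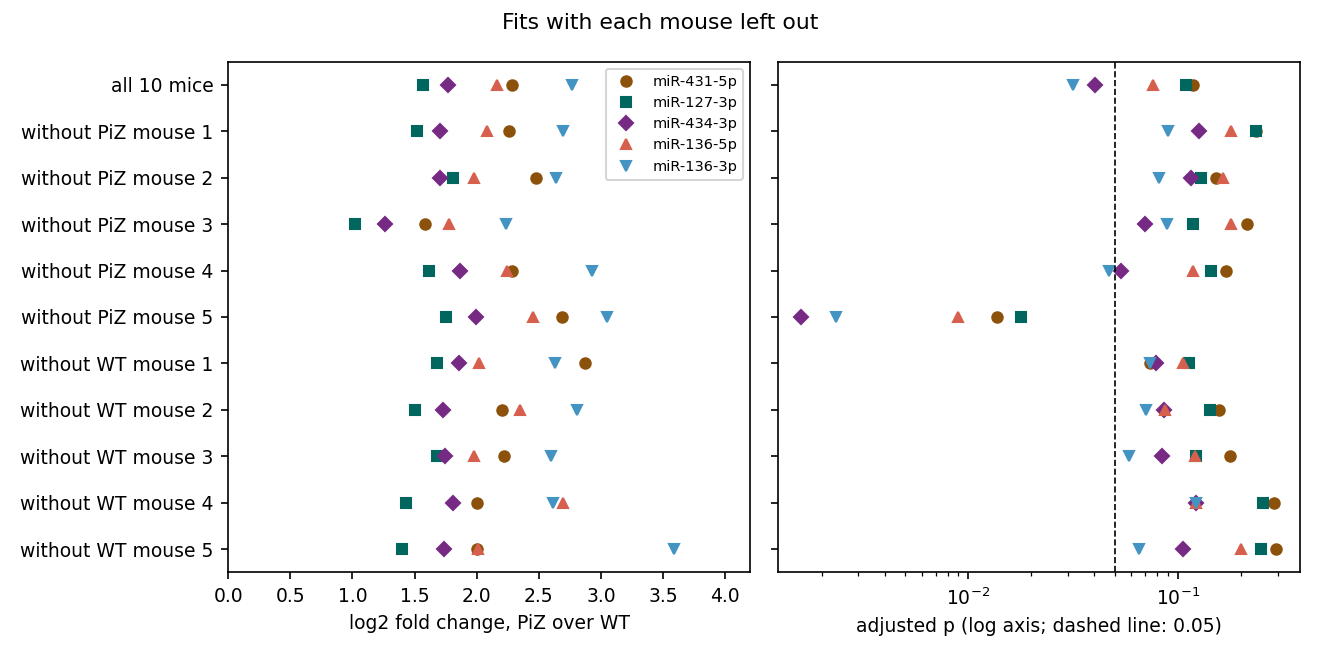
Log2 fold change, PiZ over WT (left), and edgeR adjusted p on a log axis (right, dashed line at 0.05) of the 5 tested miRNAs with all 10 mice and with each mouse left out, down the page. Every fold change is above 0, and the adjusted p of all 5 lies left of the line only where PiZ mouse 5 is left out, between 0.00160 and 0.0179.

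PiZ mouse 5, lowest of the PiZ mice for these miRNAs, also had the lowest sums among PiZ mice of the pancreas (12.2 CPM), neural (53.5 CPM), endothelial (23357 CPM), mesenchymal (9932 CPM) and biliary-epithelial (182 CPM) marker miRNAs. Single rows did not all follow these sums. The mesenchymal sum was mostly miR-143-3p (8946 CPM in PiZ mouse 5). miR-199a-5p (301 CPM) and miR-145a-3p (24.4 CPM) were highest in PiZ mouse 5 among PiZ mice. Its pancreas sum was mostly miR-375-3p (10.8 CPM), which was lower in PiZ mice 1 and 4. Its miR-141-3p and miR-200a-3p (20.6 CPM each) lay above PiZ mice 1 and 2. PiZ mouse 3, the highest, had the highest pancreas sum (85.4 CPM), with miR-216 and miR-217 in that list, against 5.74 to 17.2 CPM in WT mice. Of the 4 tested rows of that list edgeR called 2 higher in PiZ, miR-216b-5p and miR-217-5p, beside 8.33% of all tested miRNAs. Each averaged 0.0303 CPM in WT mice, so these rows passed the filter through the PiZ mice. miR-375-3p, in the same list, had a log2 fold change of -0.08 (edgeR adjusted p = 0.932) and stood at 14.8 CPM in PiZ mouse 3, inside the WT range. Erythroid miRNAs summed to 311 to 1753 CPM in PiZ and 260 to 1080 CPM in WT mice, immune miRNAs to 1896 to 3037 CPM in PiZ and 912 to 2171 CPM in WT mice. Mesenchymal sums were 9932 to 14845 CPM in PiZ and 5815 to 16907 CPM in WT mice, and biliary-epithelial sums 182 to 320 CPM in PiZ and 192 to 281 CPM in WT mice. In PiZ mouse 3 the neural sum was 103 CPM, above the WT mice, as it was in every PiZ mouse except mouse 5. Its rows went in different directions in PiZ mouse 3. miR-128-3p (78.1 CPM), miR-138-5p (13.2 CPM), miR-9-5p (2.20 CPM), miR-218-5p and miR-129-2-3p lay above every WT mouse. miR-219a-1-3p lay below every WT mouse, and the remaining rows, miR-124-3p at 0 CPM among them, lay inside the WT range. The muscle sum of PiZ mouse 3 was 0.801 CPM, inside the WT range. The part of other cell types in the levels was not tested.

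The files fall into the 2 feature lists named above, each with both genotypes, and the longer list goes with shallower libraries (1307857 to 2507519 reads, against 7043905 to 10780801 reads). miR-434-3p had a similar log2 fold change in both, 1.77 in mice of the longer list (edgeR adjusted p = 0.0189) and 1.82 in mice of the shorter list (adjusted p = 0.375), where PiZ mouse 5 is 1 of 3 PiZ mice. miR-136-3p had 4.18 (adjusted p = 0.0270) in the longer-list mice, in which WT mice held 1 read between them, and 2.34 (adjusted p = 0.324) in the shorter-list mice. For miR-127-3p the values were 1.01 and 2.18, for miR-431-5p 1.15 and 3.03 and for miR-136-5p 2.95 and 1.83, with adjusted p from 0.135 to 0.493. No difference of the genotype effect between the lists was called by edgeR's test of the interaction for any of the 5 (adjusted p 0.883 to 0.996); over all 336 miRNAs it called 0, with 13 (3.87%) at an unadjusted p under 0.05, and DESeq2 called 0 of 335. The SE of that difference was 0.98 for miR-434-3p and 1.02 to 1.73 for the others, in log2 units.

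In WT mice 1 and 3, which stood apart in their endothelial miRNAs, miR-127-3p stood at 401 and 399 CPM, above the 172 to 204 CPM of WT mice 2, 4 and 5, and miR-434-3p at 77.9 and 57.1 CPM, against 51.7 to 66.2 CPM. Reads of miR-434-3p per read of miR-127-3p, a ratio in which library scaling cancels, were 0.238, 0.426, 0.275, 0.261 and 0.279 in PiZ mice 1 to 5. In WT mice 1 to 5 the ratio was 0.194, 0.253, 0.143, 0.360 and 0.338, lowest in WT mice 1 and 3. The groups overlapped in part: PiZ mouse 2 lay above every WT mouse, and WT mice 1 and 3 lay below every PiZ mouse. Without WT mice 1 and 3 the log2 fold change of miR-127-3p was 1.98 (edgeR adjusted p = 0.114) and 0 of the 5 miRNAs were called, beside 0.298% of all tested miRNAs (all 5 at an unadjusted p under 0.05). Without these 2 and PiZ mouse 5 that log2 fold change was 2.25 (edgeR adjusted p = 0.00733) and all 5 were called, beside 16.4% of all tested miRNAs. PiZ mouse 5 was the lowest PiZ mouse for each of the 5, and WT mice 1 and 3 were the highest WT mice for miR-127-3p. The larger difference thus follows from the choice of mice, and this fit is a description only.

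miR-127-3p and miR-434-3p together made up 97.2% to 99.6% of the reads of the 13 rows listed for every mouse. The 13 rows summed to 1000, 811, 2102, 719 and 226 CPM in PiZ mice 1 to 5, against 486, 261, 458, 255 and 234 CPM in WT mice 1 to 5. As a share of all reads this was 0.0193% to 0.228% in PiZ and 0.0216% to 0.0537% in WT liver. The sum averaged 971 ± 694 CPM in PiZ livers and 339 ± 122 CPM in WT livers (SD, n = 5 each), 2.87 times as high in PiZ. Leaving out PiZ mouse 3 cut the difference of the means to 350 CPM, against 632 CPM with all mice.

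The 8 rows listed for every mouse that did not pass the filter were measured with 0 to 76 reads per mouse and were not tested. miR-433-3p, whose hairpin lies inside Rtl1, had 5, 4, 30, 20 and 3 reads in PiZ mice 1 to 5, against 2, 1, 0, 2 and 4 reads in WT mice 1 to 5. miR-337-3p, from a hairpin before Rtl1, had 6, 4, 34, 10 and 0 reads in PiZ mice, against 0, 0, 0, 3 and 1 reads in WT mice. miR-673-5p, also from before Rtl1, had 4, 1, 76, 15 and 7 reads in PiZ mice, against 3, 4, 2, 6 and 6 reads in WT mice. For all 3, PiZ mouse 3 held the most reads. miR-540-5p had 0, 1, 5, 2 and 0 reads in PiZ mice, against 0, 0, 0, 0 and 1 reads in WT mice.

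Summed over mice and divided by the scaled library sizes of each group, 7 of these 8 rows had a PiZ to WT ratio above 1. The eighth, miR-433-5p, had 6 reads, all in PiZ mouse 3, and 0 in WT mice. With 3 counts taken for the WT group, its ratio would be 1.21. That value leaves out the counting error of the 6 reads and rests on 1 mouse, so it is no lower limit. The ratio, with its 95% exact binomial interval, was 2.96 (1.84 to 4.99) for miR-673-5p, 4.16 (2.06 to 9.53) for miR-433-3p and 8.16 (3.01 to 31.0) for miR-337-3p. It was 7.71 (2.83 to 29.4) for miR-673-3p and 8.46 (2.70 to 42.7) for miR-127-5p. The widest intervals belonged to miR-431-3p, at 14.5 (2.37 to 597) on 24 PiZ reads and 1 WT read, and to miR-540-5p, at 4.84 (0.648 to 215) on 8 PiZ reads and 1 WT read. The intervals hold the error of counting alone; the spread between mice is not in them. PiZ mouse 3 gave 76 of the 103 PiZ reads of miR-673-5p, and without that mouse the ratio was 1.09 (0.595 to 2.03). Without it the ratio was 4.25 (1.42 to 17.1) for miR-337-3p and for miR-673-3p, 3.02 (1.41 to 7.20) for miR-433-3p, 5.38 (1.58 to 28.4) for miR-127-5p, 9.35 (1.36 to 402) for miR-431-3p and 2.55 (0.205 to 134) for miR-540-5p.

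The 6 rows outside the common list were nearly empty. miR-540-3p had 15, 0 and 0 reads in PiZ mice 3 to 5, against 0 and 2 reads in WT mice 4 and 5. miR-434-5p had 2, 1 and 0 reads in PiZ mice 3 to 5, against 0 and 0 reads in WT mice 4 and 5. miR-770-3p had 0 and 0 reads in PiZ mice 1 and 2, against 1, 0 and 0 reads in WT mice 1 to 3. miR-770-5p and both arms of miR-665 had no read in any of these 5 mice.

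Which arm of a hairpin was read differed between hairpins. The 3p arm made up 99.8% of miR-127 reads in PiZ mice (27083 of 27125) and 99.9% in WT mice (4460 of 4463). miR-136 was read from both arms, with the larger part from the 3p arm in PiZ mice. The 3p arm held 63.3% of 297 reads in PiZ mice (95% Wilson interval 57.7% to 68.6%) and 55.9% of 34 reads in WT mice (39.5% to 71.1%), and the intervals overlap. miR-431 was read mainly from its 5p arm, with 248 reads against 24 of the 3p arm in PiZ mice and 22 reads against 1 in WT mice, and miR-433 from its 3p arm, with 62 reads against 6 of the 5p arm in PiZ mice and 9 reads against 0 in WT mice. At the minimum of 20 reads per arm no hairpin of the group could be tested for arm balance. With the minimum at 5 reads, limma tested 101 hairpins and called 0, with 4 at an unadjusted p under 0.05. miR-136 was among them, but WT mice 1 and 3 had no read of either arm, so no value of its test is given. miR-673 had a log2 ratio of 5p over 3p reads of 0.30 in PiZ and 2.26 in WT mice (difference -1.96, SE 0.55, limma unadjusted p = 0.0049, adjusted p = 0.247); WT mice 1 to 3 had no 3p read, so that their ratios depend on the 0.5 reads added to each arm.

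Beyond Rtl1 the region goes on with the snoRNA host Rian, the large miR-379 to miR-410 cluster and Mirg, whose annotated gene holds the later part of that cluster. Of the other Dlk1-Dio3 miRNAs, 19 were tested; edgeR called 10 higher in PiZ and 0 lower, beside 8.33% of all tested miRNAs called higher, and their median log2 fold change was 2.39, against 2.17 for the 5 antisense to Rtl1. The count fell to 0 without PiZ mouse 1 or without WT mouse 1, 2, 4 or 5, to 2 without WT mouse 3, to 3 without PiZ mouse 2 and to 4 without PiZ mouse 3; it was 7 without PiZ mouse 4 and 17 without PiZ mouse 5. The exception in direction was miR-1247-5p, a miRNA next to Dio3, at a log2 fold change of -1.01 (adjusted p = 0.392). The others ranged from 1.37 (miR-154-5p) to 3.78 (miR-376b-3p). Some of the 19 passed the filter through the PiZ mice, among them miR-485-5p and miR-376c-3p, with WT means of 0.195 and 0.608 CPM. The count and the median of the 19 thus describe these rows only. The difference between the 2 sets of miRNAs was not tested.

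**Figure D3:**
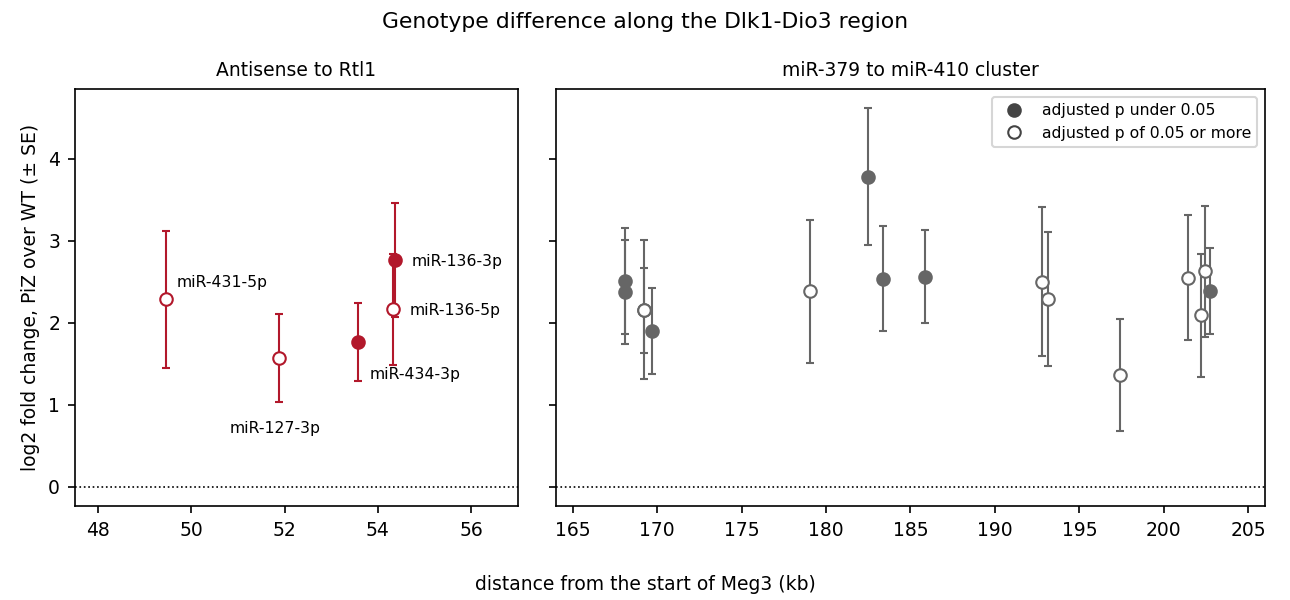
Log2 fold change, PiZ over WT, with its SE (bars), of tested miRNAs against distance from the start of Meg3 in kb, in 2 windows with separate horizontal scales: the miRNAs antisense to Rtl1 (red) and the miR-379 to miR-410 cluster (grey); filled symbols passed an adjusted p of 0.05. Each point lies above 0, from 1.37 to 3.78 in the cluster and from 1.57 to 2.77 opposite Rtl1; miR-376c-3p and miR-485-5p, with no position in the table used, and miR-1247-5p, outside the windows, are left out.

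The other Dlk1-Dio3 miRNAs summed to 1014, 789, 2150, 705 and 150 CPM in PiZ mice 1 to 5, against 189, 189, 201, 184 and 208 CPM in WT mice 1 to 5. These sums ordered the PiZ mice as the miRNAs near Rtl1 did, with PiZ mouse 5 below every WT mouse. They averaged 962 ± 737 CPM in PiZ livers and 194 ± 9.77 CPM in WT livers (SD, n = 5 each). Reads of the 13 rows per read of the other Dlk1-Dio3 miRNAs were 0.986, 1.03, 0.978, 1.02 and 1.50 in PiZ mice 1 to 5. In WT mice 1 to 5 this ratio was 2.57, 1.38, 2.28, 1.39 and 1.13. PiZ mice 1 to 4 thus lay close together, near equal reads of both sets and below every WT mouse, PiZ mouse 5 lay inside the WT range, and WT mice 1 and 3 were highest. It is given as a description, with no test.

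**Figure D4:**
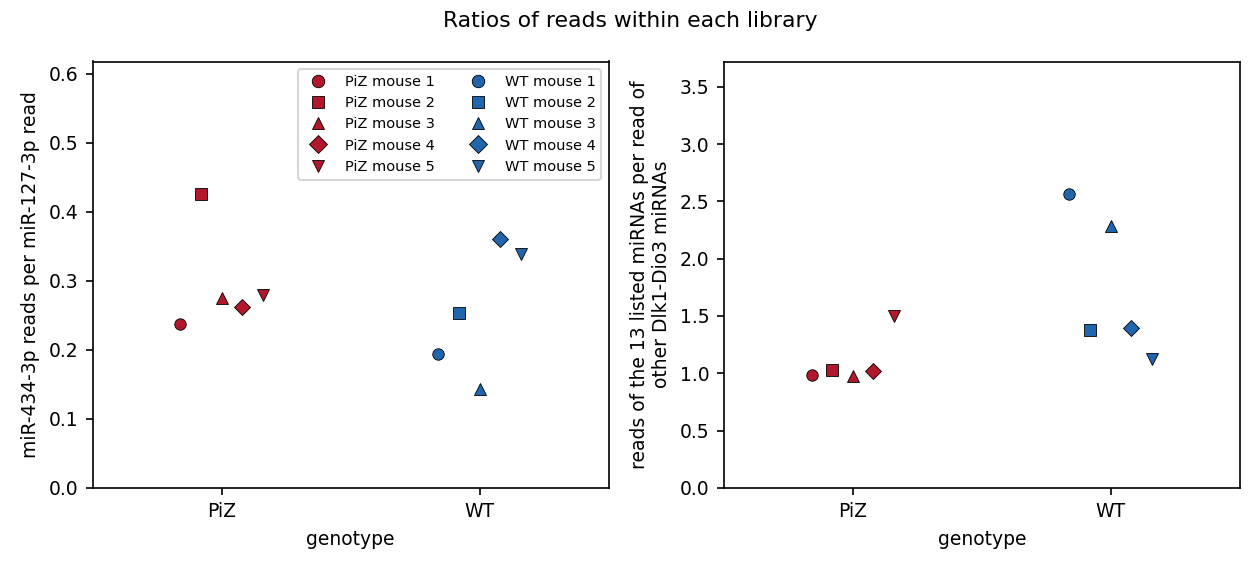
Reads of miR-434-3p per read of miR-127-3p (left) and reads of the 13 rows listed for every mouse per read of other Dlk1-Dio3 miRNAs (right), by genotype, with 1 symbol per mouse. The left ratio overlaps between genotypes (0.238 to 0.426 in PiZ, 0.143 to 0.360 in WT), and the right one is 0.978 to 1.03 in PiZ mice 1 to 4, 1.50 in PiZ mouse 5 and 1.13 to 2.57 in WT mice.

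The miRNAs most like miR-127-3p over the 10 mice, by the root mean square distance between log2 CPM profiles centred on their own means, included many of the same region. Among 331 other tested miRNAs, whose median distance was 1.18 log2 units, the nearest 5 were miR-154-5p (0.42), miR-299a-3p (0.48), miR-410-3p (0.53), miR-411-5p (0.56) and miR-381-3p (0.58), each a Dlk1-Dio3 miRNA. Of the nearest 20, 8 were Dlk1-Dio3 miRNAs and the others were not, beside 19 Dlk1-Dio3 miRNAs among all 331. Within the group, miR-434-3p stood at 0.42 and miR-431-5p at 0.66. miR-136-5p at 1.16 and miR-136-3p at 1.28 stood near the median of all miRNAs; both had WT mice with no read. miR-154-5p, the nearest, had 6.14, 2.76, 19.1, 6.12 and 1.44 CPM in PiZ mice 1 to 5, against 4.29, 2.09, 2.80, 2.58 and 2.06 CPM in WT mice 1 to 5. Like miR-127-3p it was highest in PiZ mouse 3, lowest among PiZ mice in mouse 5 and, within WT, highest in mice 1 and 3; unlike miR-127-3p it was lower in PiZ mouse 5 than in any WT mouse. The points share libraries, so the distance is a description of these 10 mice.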

How the data were processed

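Per the labels' protocols, small RNA from frozen liver was extracted with the miRNeasy kit, and TruSeq small RNA libraries, up to 12 in a lane, were run 2 times each. Each deposited file lists, for 1 run, an estimated count for every mature miRNA; CASAVA is named in the submitters' processing notes, and no source used here gives the aligner, the genome build, the miRBase release or the handling of reads that match several miRNAs. No value of the miRNAs described here was fractional. The 2 runs were added and the sums rounded to whole numbers; runs of one library differed by at most 15.8% for miR-127-3p and 18.9% for miR-434-3p in CPM.

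The 880 miRNAs listed in every file were filtered with filterByExpr, which left 336. After TMM scaling they were compared in edgeR 4.0.16 (quasi-likelihood F-test with terms for file set and genotype, Benjamini-Hochberg adjustment over all 336, threshold 0.05). The SE was taken as log2 fold change over root F. CPM were computed from the deposited counts with TMM-scaled library sizes; the tested miRNAs are 21 or 22 bases long, so no length correction was made. For arm balance, log2 ratios of 5p to 3p reads (0.5 added to each) were compared in limma 3.58.1. Alternatives used DESeq2 1.42.0; intervals used scipy 1.17.1 and cover counting error only, since reads are not independent molecules. The steps were tested on simulated data in R 4.3.3. Plots used matplotlib 3.10.9.

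The miRNAs, the marker lists and the libraries left out together were chosen with earlier results of these data known. Every row of the rule is accounted for; per-mouse values are given for each tested row and 1 row of each hairpin below the filter, and the other miRNAs named by value are the 5 nearest to miR-127-3p. miR-1247-5p, miR-376b-3p, miR-376c-3p, miR-485-5p and single rows of the marker lists were named after their values were seen. The mouse numbers pair no animals between genotypes, and p-values weigh the genotype difference against the spread between these mice. Positions and mature sequences come from RefSeq for GRCm38.p6.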

Additional observations from a re-analysis of the deposited data

Results flagged for a closer look

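miR-431-5p in WT liver had 1 mouse apart from the others: WT mouse 1 stood at 3.58 CPM, on 5 reads, while the rest of the group lay between 0.522 and 0.977 CPM. On log2 CPM with 0.5 CPM added, the gap was 0.734 of the group's range (critical value 0.71 for 5 mice). At these low levels that value depends on the amount added. 12 groups of 5 mice were looked at in this way, and chance marks about 1 in 20. Without WT mouse 1 the log2 fold change of miR-431-5p was 2.87 (edgeR adjusted p = 0.0741), against 2.29 (adjusted p = 0.118) with all mice.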

How the results depend on the processing

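All 5 tested miRNAs kept a positive log2 fold change under each setting tried (2 of 2 with the stricter filter), and no result reversed. How many passed the test varied. Against 2 called in edgeR (8.33% of all tested miRNAs called higher), 1 was called with RLE scaling (7.14% of all), library totals (7.44%), library totals without miR-22-3p (4.76%) and run 2 alone (6.55%). None (0) was called with limma-voom (1.49%), a filter of 10 CPM in 5 mice (2.38%), run 1 alone (4.76%), the shorter-list mice alone (0%) and without WT mice 1 and 3 (0.298%). DESeq2 called 4 (11.6%), and with no filter 7 of 13 were called (8.33%). The fit without PiZ mouse 5 and WT mice 1 and 3 called 5 (16.4%), but it leaves out the PiZ mouse that was lowest for each of the 5. Leaving out 1 mouse at a time gave 0 to 5. At an unadjusted p under 0.05 there were 4 with limma-voom, 2 of 2 with the 10 CPM filter, 5 with run 1 alone, 0 in the shorter-list mice alone and 5 without WT mice 1 and 3. The other Dlk1-Dio3 miRNAs, 10 called, gave 3 with library totals without miR-22-3p, 26 with no filter, 2 with the 10 CPM filter, 0 with limma-voom, 4 with run 1 alone, 0 in the shorter-list mice alone, 0 without WT mice 1 and 3, 18 without PiZ mouse 5 and WT mice 1 and 3, and 0 to 17 with 1 mouse left out. The cause was not tested, except that fewer mice or miRNAs enter some of these fits. The difference in summed level ranged from 350 to 819 CPM with 1 mouse left out and from 592 to 1082 CPM under other scalings and single runs. Other scalings moved the median log2 fold change of all miRNAs by -0.08 to 0.01. Leaving out PiZ mouse 3 for the untested rows was chosen after seeing the data. Depth limits the rows of few reads: 3 reads over the WT group amount to 0.143 CPM. No paired analysis was possible because the numbers of the runs in the labels mark technical runs of one library, which were summed, and the mice of the 2 genotypes are different animals.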
